A study of Homo sapiens with 62 samples.

Results

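This account covers 10 genes of endosomal antigen processing and its control in the human cell line GM12878. They are the cathepsin protease genes CTSS, CTSB, CTSH, CTSZ, CTSD and CTSC, the legumain gene LGMN, the thiol reductase gene IFI30, and the protease inhibitor genes CST3 and CSTB. They were chosen by gene symbol, each symbol had 1 row, and they are 10 of the 55040 annotated genes in the files. GM12878 is a lymphoblastoid line made from B cells with Epstein-Barr virus. Of 62 samples, 20 were analysed here and 42 were not analysed here. Each of the 20 was a part of a pool of 10 GM12878 cells that had been divided into 10 and carried through SMART-seq, a method that copies and amplifies polyadenylated RNA from single cells, as though each part were a cell. No treatment or allele distinguished them, and the stated purpose was to assess technical variation. The titles number 10 of them as splits 1 to 10 (the numbered set), and give the other 10 no split number but a library number, 232, 233 or 246 to 253 (the unnumbered set). For 9 of these 10, all but 247, the depositors marked the record as superseded by a later one, which was not used here. Whether a set came from 1 pool is not stated, so a p-value here reflects only how splits within a set varied, which may be technical.

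Cathepsins are proteases of endosomes and lysosomes. In B cells and other antigen-presenting cells they cut internalised proteins, and they cut the invariant chain that guards the peptide groove of MHC class II molecules, so that class II can bind antigen peptides for display to T cells. IFI30 (also called GILT) reduces disulfide bonds in the same compartments and so opens proteins to the proteases, legumain cuts after asparagine, and cystatins bind cysteine cathepsins and block them.

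Values are FPKM, fragment numbers scaled by transcript length in kilobases and by mapped megafragments (M), so that levels can be compared between genes. Depth was estimated from the authors' confidence bounds at 11.8 to 20.6 M in numbered splits and 7.79 to 38.7 M in 9 unnumbered ones, while split 247 had 0.128 M. A gene counted as detected at 1 FPKM or more. Numbered splits detected 3771 to 7671 genes, the fewest in split 9, and unnumbered splits 2942 to 4792, the fewest in split 253. Splits 9, 247 and 253 thus stood apart in depth or by few genes, and splits 7 and 8 by many genes (7671 and 6611). Splits 7, 8 and 9 had the lowest summed FPKM of the numbered set. Numbered splits 5 to 8 carry laboratory numbers apart from the rest and are called run a, the other 6 numbered splits run b, unnumbered splits 232 and 233 run c, and the remaining 8 run d. Every run held splits of 1 set only, so run and set cannot be told apart, and whether a run was a batch is not given. B cell markers were present in every split, with sums over 8 genes of 591 to 1364 FPKM (median 971) in numbered splits and 108 to 655 (median 371) in unnumbered ones. MS4A1, the gene of CD20, stood at 716 ± 209 and 258 ± 155 FPKM (SD, n = 10 each).

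CTSC and IFI30 carried most of the RNA of these 10 genes. Both were detected in all 20 splits, and together they made up 82.3 to 98.7% of the summed level of the 10 genes in numbered splits and 58.9 to 100% in unnumbered ones. CTSH and CTSS followed, each near 0 in some splits and above 100 FPKM in others. CST3 and CSTB were each detected in 9 numbered splits but reached 1 FPKM in 1 and 2 unnumbered splits. CTSB, CTSD, CTSZ and LGMN were listed at or near 0 in most splits.

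**Figure D1:**
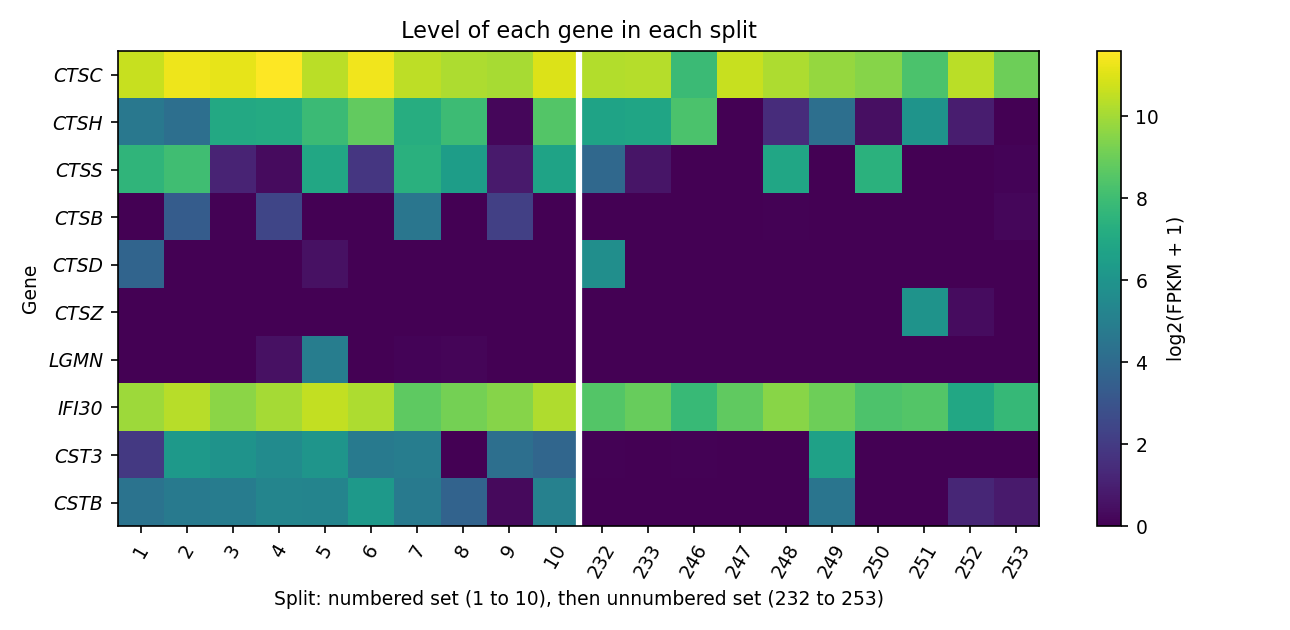
Level of each of the 10 genes (rows) in each of the 20 splits (columns), as log2(FPKM + 1) on a colour scale from 0; the white line parts the numbered from the unnumbered set. The rows of CTSC and IFI30 are filled throughout, those of CST3 and CSTB are filled in 9 numbered splits each and, among the unnumbered ones, most strongly in split 249, and CTSZ, CTSD and LGMN reach 1 FPKM in 1 or 2 splits.

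All 10 genes had a mean of 1 FPKM or more over the 20 splits and were tested, among 10506 genes in all. CTSB and LGMN reached that mean only through the numbered set (means 3.94 and 2.94 FPKM there, 0.022 and 2.3e-05 in the unnumbered set). CTSZ reached it only through the unnumbered set (6.21 against 0 FPKM). The direction of the differences of CTSB, LGMN and CTSZ is thus tied to this filter, and it counts as no support in the tallies below. The test was limma on log2(FPKM + 1) with a Benjamini-Hochberg adjustment over all tested genes and a threshold of 0.05, and on this scale differences of low genes are understated. CTSC, IFI30, CST3 and CSTB passed, 4 of 10, where 5.31% of all tested genes passed. All 4 were higher in the numbered set, as were 3.93% of all tested genes. None of the 10 was called higher in the unnumbered set, as were 1.38% of all tested genes. At an unadjusted limma p under 0.05, 7 of the 10 and 1714 of the 10506 tested genes passed in either direction. None of the 10 was then higher in the unnumbered set. Fisher's exact test on detection, the number of splits at 1 FPKM or more, called none of the 10 and 7 of all tested genes (0.0666%). Ranges of the sets overlapped for every one of the 10 genes (ranges were apart for 2% of tested genes). Without splits 9, 247 and 253 the members called were 3, CTSC, IFI30 and CSTB. The median difference over the 10 genes was 1.31 on the log2 scale, and 8 of the 10 differences were positive.

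The whole table leaned the same way. Over all tested genes the median difference was 0.35 on the log2 scale, 59.9% of differences were positive, and 413 of 558 calls (74.0%) were higher in the numbered set. That share was 62.3% after median-ratio size factors, 61.4% after scaling every split to the same sum (TPM), and 50.1% once a trend with transcript length was removed, where the median of all genes was 0.01. The median of the 10 genes was then 1.18, 1.14 and 1.06. Relative to the median of all genes, the main differences came to 0.83 for CTSC, 1.05 for IFI30, 3.33 for CST3 and 3.45 for CSTB. That median is over tested genes of every level, and differences of low genes are understated on this scale. A split gives 1 value for whatever RNA of its pool it held, so fewer cells with a gene's RNA and less RNA per cell cannot be told apart.

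The 250 bases before the start of transcription are shown for CTSC and IFI30, the pair found in every split, for CST3, which differed most in detection, and for CTSD, which shares a motif with IFI30 but was listed at 0 in 17 splits. They are RefSeq sequences of build GRCh38.p14, at chr11:88337737-88337986 on the minus strand (CTSC), chr19:18173563-18173812 on the plus strand (IFI30), chr20:23637956-23638205 on the minus strand (CST3) and chr11:1763928-1764177 on the minus strand (CTSD), each written 5′ to 3′ in the direction of transcription. Capitals mark CACGTG (E-box core), CCGCCC or its reverse complement (GC box core) and CCAAT or its reverse complement (CCAAT box).
CTSC: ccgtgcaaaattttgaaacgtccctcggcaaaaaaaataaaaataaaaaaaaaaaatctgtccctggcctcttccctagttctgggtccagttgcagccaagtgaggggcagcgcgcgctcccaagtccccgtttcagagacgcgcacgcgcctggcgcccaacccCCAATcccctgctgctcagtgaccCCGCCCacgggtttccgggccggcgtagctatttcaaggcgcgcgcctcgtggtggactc
IFI30: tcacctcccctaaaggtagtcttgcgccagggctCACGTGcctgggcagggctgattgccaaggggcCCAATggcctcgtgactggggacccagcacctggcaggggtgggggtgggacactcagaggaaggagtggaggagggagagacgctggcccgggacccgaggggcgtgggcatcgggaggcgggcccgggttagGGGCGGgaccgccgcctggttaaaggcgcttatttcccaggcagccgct
CST3: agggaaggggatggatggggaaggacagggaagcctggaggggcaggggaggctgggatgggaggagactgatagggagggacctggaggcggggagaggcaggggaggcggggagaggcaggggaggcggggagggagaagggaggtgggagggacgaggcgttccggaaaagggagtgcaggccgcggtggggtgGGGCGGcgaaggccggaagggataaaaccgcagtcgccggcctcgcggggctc
CTSD: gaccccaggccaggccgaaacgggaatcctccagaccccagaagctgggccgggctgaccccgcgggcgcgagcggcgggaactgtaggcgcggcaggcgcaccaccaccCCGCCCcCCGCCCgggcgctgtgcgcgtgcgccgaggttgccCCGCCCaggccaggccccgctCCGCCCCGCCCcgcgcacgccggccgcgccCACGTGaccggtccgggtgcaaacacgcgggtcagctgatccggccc

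The RefSeq table held windows of 300 bases (250 before and 50 after the start) for 6 of the 10 genes, CTSC, CTSD, CTSH, CTSZ, IFI30 and CST3. CCGCCC, searched on both strands, was in all 6, and in 45.0% of 35116 such windows. CCAAT was in 2, CTSC at 80 to 84 bases and IFI30 at 179 to 183 bases before the start, and in 34.6% of all windows. CACGTG was in 2, CTSD at 42 to 47 bases and IFI30 at 211 to 216 bases before the start, and in 7.26% of all windows. In CTSD 2 of the 5 GC boxes overlap by a base, and no GC box overlaps another motif. The interferon-stimulated response element core and TTCNNNGAA (gamma-activated site core), both searched on both strands, were in none of the 6, and in 3.57% and 7.66% of all windows. A match is only a match of letters. Of these 6 genes, the 2 with a CCAAT box are the 2 detected in all 20 splits, and CACGTG is in the windows of IFI30, at 123 FPKM or more in every split, and of CTSD, listed at 0 in most splits. The motifs were chosen after these values were seen, the windows are only 6, and a link between motif and level was not tested.

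CTSC, which encodes the dipeptidyl peptidase that activates granule serine proteases, was the most abundant of the 10 genes. Its row spans bases 88026778 to 88070955 of chromosome 11 (coordinates here and below as deposited, whole gene rows; the build of the files: not given in the sources used here). In the numbered set it ranged from 1072 FPKM in split 9 to 3105 in split 4, with a median of 1800. In the unnumbered set it ranged from 236 FPKM in split 246 to 1601 in split 247, with a median of 1017. The ranges overlapped between 1072 and 1601 FPKM, and 5 unnumbered splits lay above the lowest numbered one. Means were 1912 ± 702 and 931 ± 467 FPKM (SD, n = 10 each), and the log2 difference of 1.18 ± 0.32 (SE) passed the test (limma adjusted p = 0.0246).

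This call rested on the setting. With size factors the log2 difference of CTSC was 0.94 (limma adjusted p = 0.0794), and it also missed the threshold when any 1 of numbered splits 2, 3, 4, 6 and 10 or unnumbered splits 251 and 253 was left out (differences of 1.03 to 1.16, limma adjusted p from 0.0506 to 0.0636). Run b, at 2099 ± 719 FPKM (SD, n = 6), and run a, at 1632 ± 665 FPKM (SD, n = 4), both had a mean above that of run d, at 850 FPKM with a range of 236 to 1601 (n = 8), while the 2 splits of run c stood at 1242 and 1264 FPKM. The authors' upper bound lay 1.94 to 10.0% above the value in 19 splits and 33.04% above it in split 247, so the spread of CTSC between splits was wider than those bounds.

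IFI30, at bases 18284579 to 18288927 of chromosome 19, had the second highest level. It ranged from 422 FPKM in split 7 to 1471 in split 5 in the numbered set, with a median of 1002. In the unnumbered set it ranged from 123 FPKM in split 252 to 750 in split 248, with a median of 360. Numbered splits were high as a group, and 3 of them, splits 7, 8 and 9, lay below the highest unnumbered split. These are the numbered splits with the lowest summed FPKM, and with every split scaled to the same sum the log2 difference was 1.16 (limma adjusted p = 0.0143). Means were 962 ± 336 and 381 ± 180 FPKM (SD, n = 10 each), with a log2 difference of 1.403 ± 0.31 (SE, limma adjusted p = 0.00509). IFI30 kept its call whichever split was left out (limma adjusted p from 0.00158 to 0.0111). Once the trend with transcript length was removed, the log2 difference was 1.12 and did not pass (limma adjusted p = 0.0570).

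The ratio of CTSC to IFI30 was 0.922 to 3.28 in numbered splits, with a median of 1.96. In unnumbered splits it was 0.877 to 11.1, with a median of 2.28, and the value of 11.1 came from split 252, where IFI30 was lowest. CTSC was above IFI30 in 9 of 10 numbered and 9 of 10 unnumbered splits, the exceptions being splits 5 and 251. IFI30 was above CTSH in 10 and 9 splits, the exception being split 246. Below that the order was loose, with CTSH above CTSS in 6 splits of each set.

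**Figure D2:**
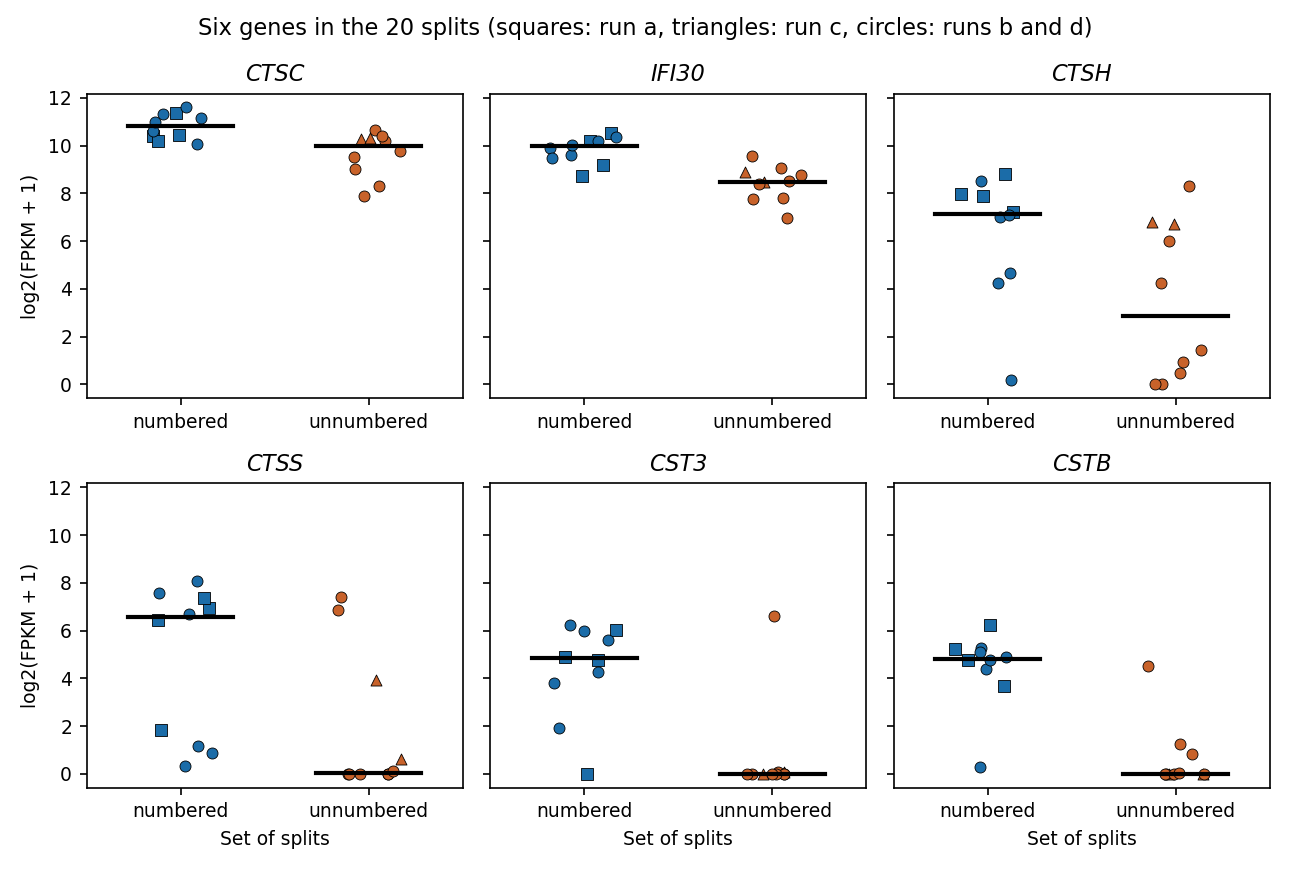
Level of 6 genes as log2(FPKM + 1) in the 10 numbered and 10 unnumbered splits; each symbol is a split, squares are run a, triangles run c, circles runs b and d, and the bar is the median. CTSC and IFI30 have no split near 0, and their sets are shifted but overlap, whereas CTSH, CTSS, CST3 and CSTB have splits near 0 beside splits above 10 FPKM.

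CTSH, an aminopeptidase with endopeptidase activity, lies at bases 79213400 to 79241916 of chromosome 15. It was detected in 9 numbered splits, at 18.1 FPKM in split 2 to 454 in split 6, and stood at 0.134 FPKM in split 9. The median over the numbered set was 141 FPKM. Of the unnumbered splits 6 had it, from 1.75 FPKM in split 248 to 319 in split 246, and the median over the set was 9.75 FPKM with splits 247 and 253 listed at 0. The ranges overlapped between 0.134 and 319 FPKM, the lower end being numbered split 9. Unnumbered splits 247, 248, 249, 250, 252 and 253 lay below the 18.1 FPKM of split 2, and of the numbered splits only split 9 did. The log2 difference of 2.86 ± 1.24 (SE) did not pass (limma adjusted p = 0.230). In split 246 CTSC had its lowest level, 236 FPKM, and CTSH the highest of its set, so that CTSC made up 42.5% of the summed level of the 6 cathepsins there. In the other unnumbered splits that share was 71.9 to 100%, and in numbered splits 77.8 to 99.6%.

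CTSS encodes the cysteine protease that finishes the breakdown of the invariant chain in B cells and dendritic cells, and its row spans bases 150702551 to 150738433 of chromosome 1. In the numbered set 6 splits (1, 2, 5, 7, 8 and 10) held 86.1 to 266 FPKM and the other 4 held 0.246 to 2.62, around a median of 94.8 over all 10. In the unnumbered set split 250 held 170 FPKM, split 248 held 116 and split 232 held 14.4, while the other 7 lay between 0 and 0.553 FPKM. CTSS was thus at 14.4 FPKM or more in 9 of the 20 splits and under 3 FPKM in the rest. The log2 difference of 2.83 ± 1.31 (SE) did not pass (limma adjusted p = 0.278). High CTSH and high CTSS did not always coincide. In split 246 CTSH was at 319 FPKM with CTSS listed at 0, and in split 250 CTSS was at 170 FPKM with CTSH at 0.409.

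The remaining cathepsins were rarely seen. CTSB, an abundant lysosomal cysteine protease in many tissues, reached 1 FPKM in 4 numbered splits, at 3.53 (split 9), 4.28 (split 4), 9.35 (split 2) and 22.2 FPKM (split 7), and in no unnumbered split, where its highest value was 0.149. Its log2 difference was 1.23 ± 0.57 (SE, limma adjusted p = 0.281). CTSD, the main aspartic protease of lysosomes (chromosome 11, bases 1773982 to 1785222), was at 12.3 FPKM in split 1 and 53.0 in split 232, and no other split reached 1 FPKM. CTSZ, a carboxypeptidase (chromosome 20, bases 57570240 to 57582302), had no numbered split above 0 and held 61.8 FPKM in split 251 and 0.296 in split 252. The log2 differences of CTSD and CTSZ were -0.15 ± 0.66 and -0.63 ± 0.57 (SE, limma adjusted p = 0.916 and 0.605). Without split 232 the difference of CTSD was 0.42 and without split 1 it was -0.52, and without split 251 that of CTSZ was -0.042.

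LGMN, the asparaginyl endopeptidase gene on chromosome 14 (bases 93170152 to 93215047), was detected in split 5 alone, at 28.7 FPKM. Its other values were at most 0.436 FPKM among numbered splits and 0.000231 among unnumbered ones. The log2 difference was 0.57 ± 0.49 (SE, limma adjusted p = 0.600), and 0.090 without split 5. At the estimated depths 3 fragments on these 10 genes correspond to 0.0127 to 0.258 FPKM in 19 splits and to 3.83 to 15.7 FPKM in split 247, so single-split values of 12.3 to 61.8 FPKM were far above that level, and an entry of 0 in split 247 does not separate an absent gene from one of several FPKM. These levels cover counting error only. They use the longest transcript of each gene in the GENCODE annotation, release 29, as did the trend with transcript length. For a gene read from a shorter transcript, 3 fragments correspond to a higher FPKM than given here.

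CST3 encodes cystatin C, a secreted inhibitor of cysteine cathepsins, and spans bases 23608534 to 23619110 of chromosome 20. In the numbered set it was detected in 9 splits and listed at 0 in split 8, with a highest value of 75.5 FPKM in split 2 and a median of 27.8. In the unnumbered set it was detected in split 249 alone, at 98.2 FPKM, with 0.0466 and 0.0559 FPKM in splits 232 and 246 and 0 listed for the other 7. The highest of all 20 values was therefore an unnumbered one, while 9 unnumbered splits lay below the 9 numbered ones that had the gene. The log2 difference was 3.68 ± 0.95 (SE, limma adjusted p = 0.0193). It did not pass without splits 9, 247 and 253 (3.52, limma adjusted p = 0.0690), with a pseudocount of 10 (1.48, limma adjusted p = 0.0983) or between runs b and d alone (3.80, limma adjusted p = 0.105).

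CSTB encodes cystatin B, which acts inside the cell, and spans bases 45192393 to 45196326 of chromosome 21. Numbered values ran from 0.222 FPKM in split 9 to 74.1 in split 6 with a median of 27.4, and 9 of the 10 splits held 12.01 FPKM or more. Unnumbered values reached 1 FPKM in split 249, at 21.9, and in split 252, at 1.398, and the other 8 were at most 0.804. Apart from split 9 and split 249 the sets did not mix. The log2 difference was 3.80 ± 0.80 (SE, limma adjusted p = 0.00285), and it stayed past the threshold whichever split was left out (highest limma adjusted p 0.00519). Between runs b and d alone it did not pass (3.29, limma adjusted p = 0.101).

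The CSTB row overlaps that of PDXK, which makes the active form of vitamin B6, by 1759 bases. The kit used does not mark strand, so reads in that stretch cannot be told apart between the genes. PDXK had medians of 45.6 and 0.0733 FPKM in the numbered and unnumbered sets and also passed, with a log2 difference of 3.49 (limma adjusted p = 0.0303). In the numbered set both genes were at 1 FPKM or more in 9 splits and neither in split 9. In the unnumbered set both were there in split 249, CSTB alone in split 252, and PDXK alone in splits 251 and 253, where it held 14.5 and 51.2 FPKM against 0 and 0.804 FPKM for CSTB. The part of PDXK reads in the level of CSTB was not tested.

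The summed level of both cystatins was 12.01 to 102 FPKM in numbered splits (median 70.2). In unnumbered splits it was 120 FPKM in split 249 and at most 1.398 in the others. Set against the sum of the 6 cathepsins, which was 1077 to 3244 FPKM in numbered and 443 to 1601 in unnumbered splits, cystatin RNA came to 0.800 to 5.93% in numbered splits and to 13.4% in split 249, with at most 0.155% in the other unnumbered splits. Split 249 was thus the single unnumbered split with both inhibitors above 20 FPKM.

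**Figure D3:**
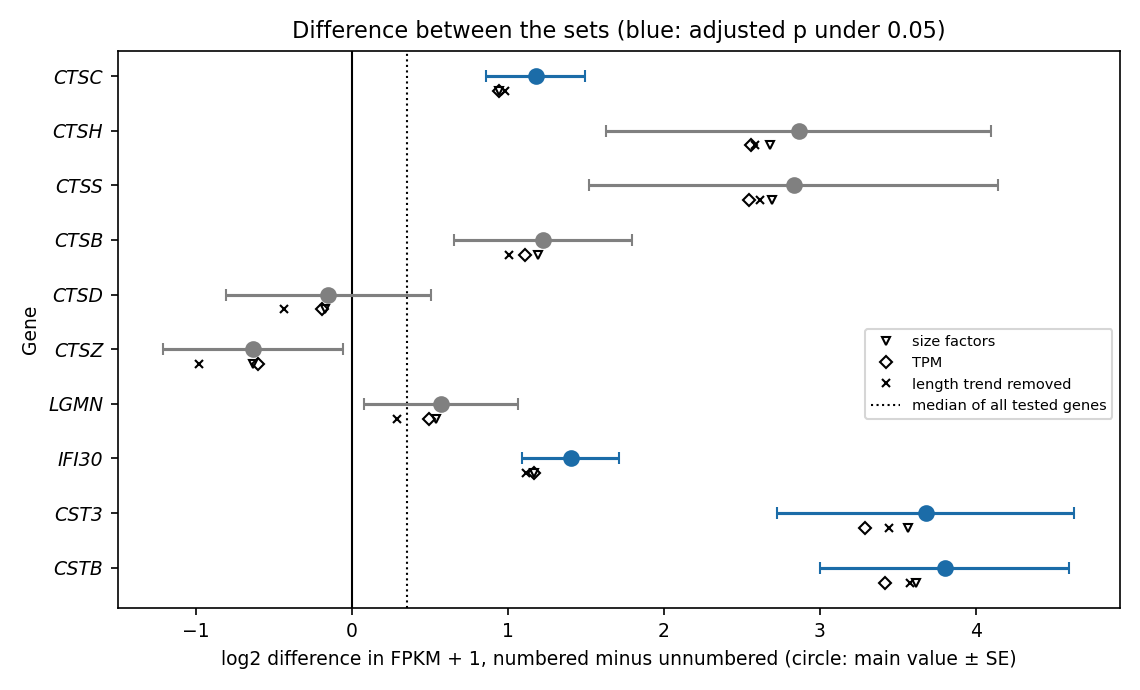
Log2 difference in FPKM + 1, numbered minus unnumbered, for each of the 10 genes; circles with bars are the main value ± SE, blue where the limma adjusted p was under 0.05, small black symbols are values under other scalings, and the dotted line is the median of all tested genes, 0.35. CST3 and CSTB lie farthest to the right at 3.68 and 3.80, CTSC and IFI30 have the shortest bars, and CTSD and CTSZ lie left of 0.

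Counted per split, the numbered set had 6.1 ± 0.99 of the 10 genes at 1 FPKM or more, with a range of 4 to 7, and the unnumbered set 3.4 ± 1.07, with a range of 2 to 5 (SD, n = 10 each). That is 61 and 34 detections of 100 possible in each set. The lowest numbered count, 4, was in split 9, and the lowest unnumbered counts, 2, were in splits 247 and 253. In both of these only CTSC and IFI30 were detected. At 10 FPKM or more the counts were 55 and 32, and with the authors' lower bound above 0 they were 64 and 40.

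The study made the splits to measure technical spread, and the coefficient of variation (CV, SD over mean) was taken over the 10 splits of a set. CTSC had a CV of 0.367 over numbered splits and of 0.502 over unnumbered ones, above the medians of 0.258 and 0.379 for tested genes within 2-fold of its level. IFI30 had 0.349 and 0.473, against 0.352 and 0.635 for genes of its level. CTSH stood at 0.860 and 1.63 (like-level medians 0.720 and 1.33) and CTSS at 1.002 and 2.03 (0.933 and 1.73). The cystatins split by set: in the numbered set CST3 had 0.795 and CSTB 0.658, below the like-level medians of 1.41 and 1.48, while in the unnumbered set they had 3.16 and 2.84, above 2.32 and 2.65. A gene found in a single split of 10 has a CV of about 3.16, the most that 10 splits allow.

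**Figure D4:**
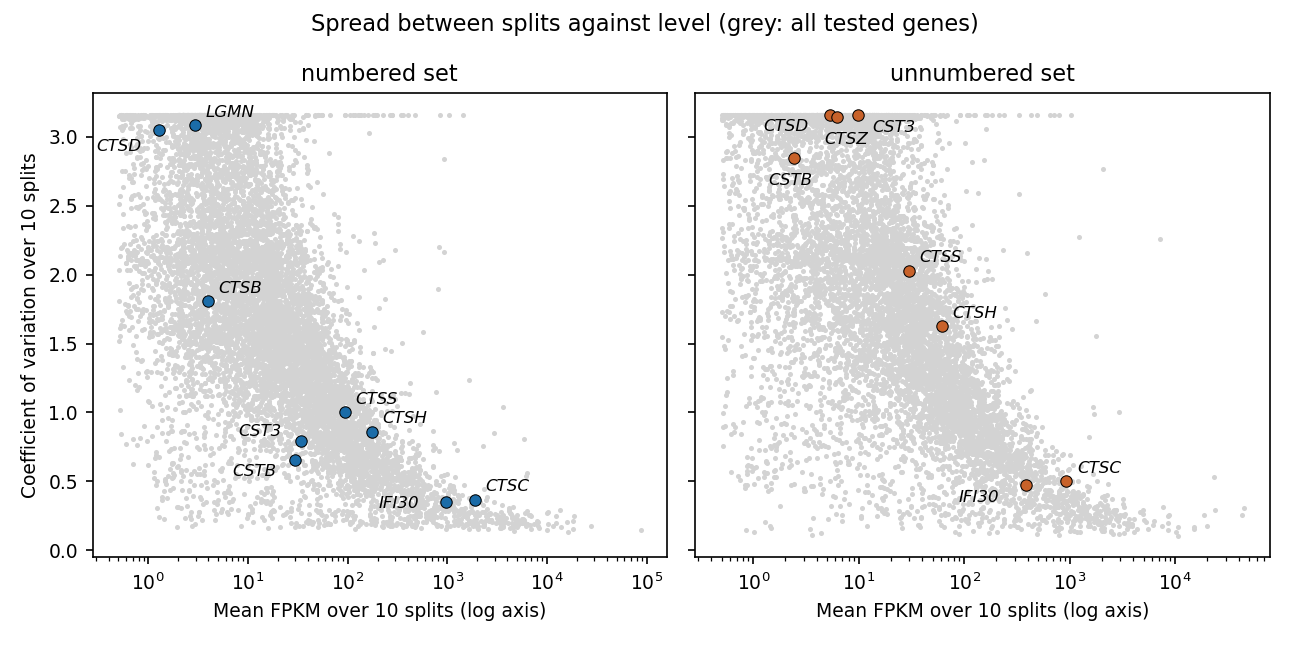
Coefficient of variation over the 10 splits of a set against mean FPKM on a log axis, with all tested genes of 0.5 FPKM or more in grey and the genes of this account in colour. CTSC and IFI30 lie between 0.349 and 0.502, CST3 and CSTB lie under the grey cloud's middle in the numbered set, and CST3, CTSD and CTSZ lie on the upper edge in the unnumbered set.

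Genes with profiles most like the 3 most abundant members were taken as those with the smallest root mean square difference of centred log2 values over the 20 splits, among genes within 4-fold of the level. For CTSC these were the ribosomal protein genes RPS4X (0.59), RPL11 (0.65) and RPS27A (0.68), where the median over 472 candidates was 1.16. For IFI30 the nearest were RPS2P5 and RP11-864N7.2 (0.52 each; median 1.77 over 834 candidates). RPS2P5 is a pseudogene, so its own level is uncertain. For CTSH they were PRDX5 (1.94), CSTF3 (1.97) and HAUS1 (2.16; median 3.83 over 2946 candidates), all farther away than the neighbours of CTSC and IFI30. The log2 differences between the sets were 1.05 for RPS4X, 1.19 for RPL11 and 1.22 for RPS27A, beside 1.18 for CTSC. They were 1.16 for RPS2P5 and 1.38 for RP11-864N7.2, beside 1.403 for IFI30. Neighbours were picked by their profile over these same splits, so a like difference follows in part from the choice.

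The rest of the pathway was read from lists of related genes. MHC class II chains and loading factors had 5 of 11 genes higher in the numbered set and none higher in the unnumbered set (limma, also none at an unadjusted p under 0.05). Over all tested genes these shares were 3.93% and 1.38%. Differences were positive for 9 of the 11. The loading factor genes HLA-DMA and HLA-DMB leaned the other way, with log2 differences of -1.446 and -2.539. Neither of these passed (limma adjusted p = 0.347 and 0.355). The invariant chain gene CD74, whose product the cathepsins cut, stood at 5222 ± 1077 and 2328 ± 653 FPKM (SD, n = 10 each), with a log2 difference of 1.20 ± 0.17 (SE, limma adjusted p = 2.2e-05). Its ranges were 3246 to 6737 and 1067 to 3116, with no overlap, and ranges were apart for 2% of all tested genes. The class II chain genes HLA-DRA, HLA-DRB1, HLA-DQB1 and HLA-DPB1 also passed, with log2 differences of 0.81, 1.401, 4.40 and 2.13, though HLA-DRB1 shares sequence with paralogs and is uncertain. HLA-DPB1 had a limma adjusted p of 0.0416 and kept its call in 6 of the 20 fits that left out 1 split. In the other 14 its difference was 1.88 to 2.18, near the main value. HLA-DPB1 also did not pass in 8 of the alternatives besides leaving out 1 split (1.79 to 2.24, limma adjusted p from 0.0673 to 0.167). HLA-DRB1 did not pass with size factors (1.17, limma adjusted p = 0.0631), nor HLA-DRA with the length trend removed (0.44, limma adjusted p = 0.135). The median difference of these 11 genes was 1.20, beside 1.31 for the 10 cathepsin-related genes and 0.35 for all. Medians of this size were not limited to antigen processing. They were 1.351 for T and NK cell markers, 1.273 for B cell markers and 1.118 for lysosomal hydrolases and activators. Lower medians were 0.832 for sorting genes, 0.769 for lysosomal membrane proteins, 0.627 for the proton pump, 0.523 for myeloid markers and 0.0119 for regulators.

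The lists of lysosomal hydrolases, membrane proteins and proton pump subunits had 1 call each, beside 5.31% called over all tested genes, and limma called none of their genes higher in the unnumbered set, also at an unadjusted p under 0.05. Of 20 tested lysosomal hydrolases and activators 1 passed, PSAP, the precursor of the saposins, with 6.31 to 126 FPKM among numbered splits and 0 to 42.0 among unnumbered ones (3.52 on the log2 scale, limma adjusted p = 0.0217). Of 9 tested lysosomal membrane proteins LAMP3 passed (3.63, limma adjusted p = 0.0132), and of 16 subunits of the vacuolar proton pump, which acidifies endosomes, ATP6V1D passed (5.20, limma adjusted p = 0.00454). Without run a these 3 did not pass, at differences of 3.47, 3.45 and 4.53 (limma adjusted p = 0.113, 0.112 and 0.112). Limma called none of 4 tested genes for sorting lysosomal enzymes (1 at an unadjusted p under 0.05), with M6PR, a mannose 6-phosphate receptor, at medians of 80.1 and 18.4 FPKM. It called none of 4 tested regulators of lysosomal and class II genes (0 at an unadjusted p under 0.05), with RFXANK, part of the complex on class II promoters, at medians of 42.0 and 26.6 FPKM.

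**Figure D5:**
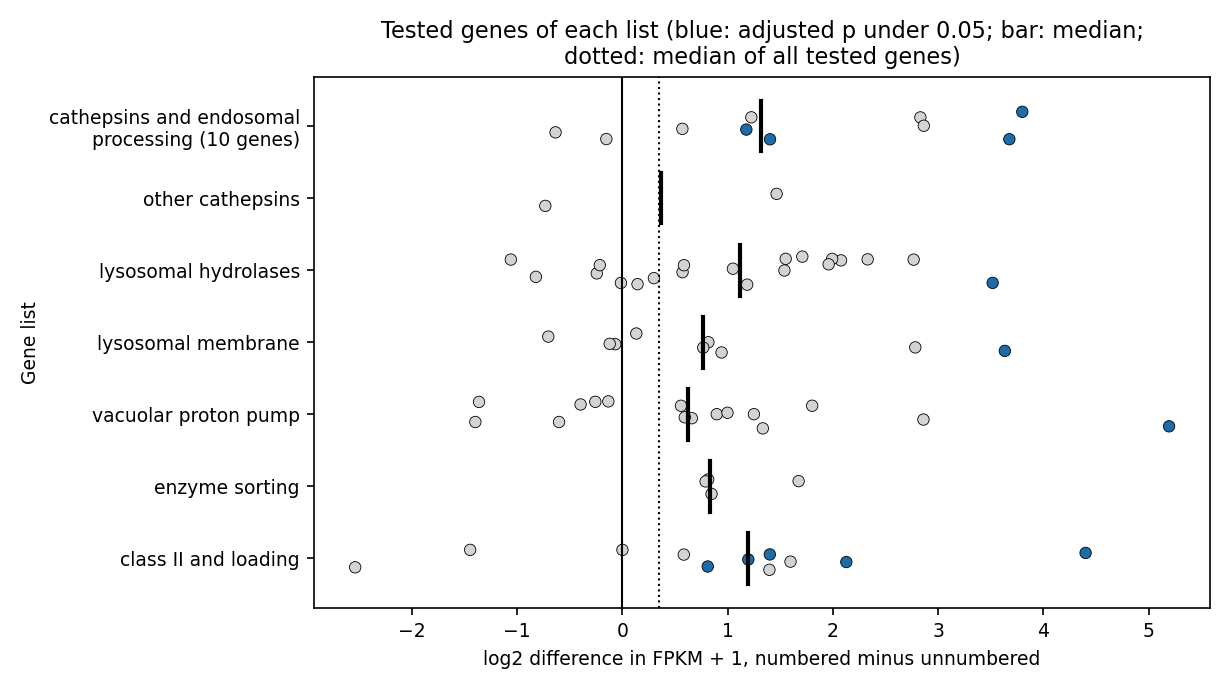
Log2 difference in FPKM + 1, numbered minus unnumbered, of each tested gene of 7 lists; blue points had a limma adjusted p under 0.05, black bars are list medians, the dotted line is the median of all tested genes, and vertical scatter within a list has no meaning. Every blue point lies to the right of 0, with 4 in the row of cathepsins and endosomal processing and 5 in the class II row.

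Close relatives of the 10 genes were mostly listed at 0. Of 9 other cathepsin genes 6 were listed at 0 in all 20 splits and 2 were tested, and the most abundant, the serine carboxypeptidase gene CTSA, reached 1 FPKM in 3 numbered splits and 1 unnumbered split, at up to 125 and 27.5 FPKM. Of 7 other cystatin genes only CSTA was tested, at up to 37.7 FPKM among numbered splits and 0 in every unnumbered split. Limma called none of these 3 tested relatives (0 at an unadjusted p under 0.05), and Fisher's exact test on detection called 0.

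Cathepsins and cystatins are also high in monocytes, macrophages and dendritic cells, so markers of other cells were read beside them. Of 10 such myeloid markers 3 were listed at 0 in all 20 splits, CD14 among them, LYZ was at or near 0 in all, and CSF1R reached 1 FPKM in 10 numbered and 8 unnumbered splits, with medians of 2.42 and 1.30 FPKM and highest values of 53.8 and 1.65. ITGAM reached 1 FPKM in 1 numbered split, at 38.6. Sums of the 10 markers ran from 1.66 to 53.8 FPKM in numbered and from 0.920 to 152 in unnumbered splits, the last mostly from CD1C in split 247. Limma called none of the 3 tested myeloid markers (0 at an unadjusted p under 0.05). T and NK cell markers summed to 3.22 to 99.2 and 0 to 243 FPKM, and limma called none of 3 tested (1 at an unadjusted p under 0.05). Over all tested genes 3.93% were called higher in the numbered set. Among B cell markers MS4A1 and CD79A passed, 2 of 8, both higher in the numbered set (1.64 and 4.69 on the log2 scale, limma adjusted p = 0.00401 and 0.00274), in the direction of the 4 called genes. Without run a they did not pass (1.51 and 4.42, limma adjusted p = 0.0537 and 0.0533). The part of this difference in the levels of the cathepsin and cystatin genes was not tested.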

How the data were processed

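The authors deposited 1 file per library with FPKM, an upper and a lower confidence bound and a status for each gene, and the submitters' processing notes name TopHat 1.4.1 and Cufflinks 2.0.2. No build is named for them (not given in the sources used here). These 20 libraries held 55040 rows. Rows with status LOWDATA in every library (5797) or FAIL in any (128) were left out, which kept 49115. FPKM gives no counts, so depth was estimated from the bounds of 10 mitochondrial genes (largest residual 0.963%).

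Sets were compared with limma 3.58.1 in R 4.3.3 (trended variance, 2-sided) on log2(FPKM + 1), for the 10506 genes whose mean reached 1 FPKM, with Benjamini-Hochberg adjustment. The script was tested on simulated data. Other steps used Python 3.11.15, pandas 2.3.3 and numpy 2.4.6. No pair of libraries held identical values. Of 14 alternatives, besides leaving out each split, the effects are given at the end. All 10 members are named. Of other lists, genes past the threshold are named, or otherwise the most abundant gene, and for the 3 most abundant members the 3 nearest profiles, of which 1 is not reported here. The members and lists were chosen with earlier results of these data known, and the motifs were chosen after the values were seen. Coordinates were changed from a 0-based to a 1-based start.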

Additional observations from a re-analysis of the deposited data

Results flagged for a closer look

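In 11 of the 20 groups formed by a gene and a set, 1 split lay far from the other 9 by Dixon's criterion at 95%, which chance alone meets in about 1 group in 20 for values that follow a normal distribution, and genes listed at 0 in most splits do not. Among the cathepsins these were CTSB at 22.2 FPKM in numbered split 7 and at 0.149 FPKM in unnumbered split 253, CTSH at 319 FPKM in split 246, CTSZ at 61.8 FPKM in split 251, and CTSD at 12.3 FPKM in numbered split 1 and at 53.0 FPKM in split 232. LGMN stood apart at 28.7 FPKM in numbered split 5 and at 0.000231 FPKM in split 250, a value far below that of a single fragment. Of the cystatins, CST3 stood apart at 98.2 FPKM in split 249, and CSTB at 74.1 FPKM in numbered split 6 and at 21.9 FPKM in split 249. Split 249 is thus marked for both cystatins. CTSC, IFI30 and CTSS had no such split in either set.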

How the results depend on the processing

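CTSC kept its direction in every alternative that gave a value, but missed the threshold with no filter on low values (1.18, limma adjusted p = 0.0858), size factors (0.94, p = 0.0794), TPM (0.94, p = 0.0741), the length trend removed (0.98, p = 0.113), runs b and d alone (1.49, p = 0.0909) and without run a (1.32, p = 0.0978). Leaving out 1 split at a time gave 0.98 to 1.29. IFI30 missed it only with the length trend removed (1.12, p = 0.0570). CST3 missed it with a pseudocount of 10 (1.48, p = 0.0983), in runs b and d (3.80, p = 0.105) and without splits 9, 247 and 253 (3.52, p = 0.0690), and CSTB in runs b and d (3.29, p = 0.101). By Fisher's exact test on detection CST3 differed by 8 splits (adjusted p = 0.191) and CSTB by 7 (adjusted p = 0.405), and genes with equal detection (CTSC, IFI30 and CTSD) have no value. The members called numbered 2 with the length trend removed, 1 in runs b and d and 0 by Fisher's test, which called 7 of all tested genes (456 at an unadjusted p under 0.05). CTSD turned positive with a pseudocount of 0.1 (0.027), with run a as a covariate or left out (0.046 each), in runs b and d (0.62) and without split 232 (0.42), and leaving out 1 split at a time gave -0.52 to 0.42. The CV of CTSC in the numbered set was 0.288 on TPM, and that of IFI30 0.268 on TPM and 0.234 without run a. Fewer samples enter the fits without runs, and the cause of the other changes was not tested. At a mean of 10 FPKM or more CTSB, CTSD, CTSZ and LGMN were not among the genes tested. No paired analysis was possible because the sets share no replicate numbers. Depth limits the levels near 0 in split 247.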
